A study of Mus musculus with 8 samples.

Results

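The genes described here are Gas1 and 8 further genes of the Hedgehog pathway, Cdon, Boc, Ptch1, Smo, Gli1, Gli2, Gli3 and Sufu. They were found by symbol in the table that the authors deposited, which held 12589 genes, and 8 of the 9 had a row. Gli1 had none. Gas1 was chosen by the size of its change between treatments in the authors' own comparison, known from an earlier reading of the same table, and the other genes were chosen as partners of Gas1 in the pathway. That comparison is not used here, so nothing below speaks for or against a change of any of these genes.

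The RNA came from mSSC-YFP, a stromal cell line derived from mouse spleen that carries a yellow fluorescent protein. It is a line in culture, which the paper calls immortalized, without the leukocytes and vessels around stroma in the spleen. It cannot stand for the stromal cells of the spleen as a whole. The labels put 4 samples in the group treated with BMS493, an inhibitor of retinoic acid signaling, and 4 in the group treated with the vehicle DMSO, each for 48 h. Both groups grew in the same medium with fetal bovine serum. The study asked what blocking retinoic acid signaling does to gene expression in these cells.

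Hedgehog proteins are secreted signals that bind the receptor Ptch1. Without a ligand Ptch1 keeps the membrane protein Smo inactive, and Sufu together with kinases holds the GLI transcription factors back, so that Gli3 and part of Gli2 are cut into repressors. With a ligand Smo enters the primary cilium and GLI activators switch on target genes, among them Gli1 and Ptch1 themselves. Gas1, Cdon and Boc sit on the cell surface and help Ptch1 to bind the ligand, Gas1 through a lipid anchor and the other two, which are relatives of each other, through a membrane-spanning segment. In mesenchymal cells the pathway is known for its part in organ patterning and in the exchange between epithelium and stroma.

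The values are the authors' means of log2 normalized expression, 1 per gene. The column names no sample, was taken as the mean over both treatments, and therefore gives the level of neither group where a gene differs between them. Values of single samples were not analysed here, which leaves the depth of each one unknown (the methods give an average alone); no spread can be attached to a level, and no order of levels was tested. Over the table the mean log2 level ran from -0.58 to 13.29, with a median of 4.99. Since a longer transcript yields more reads, genes were compared after division by the length of all their exons, as a log2 level per kilobase. The median of 12369 genes with a length was 2.85 on that scale, and the quartiles were 1.42 and 4.15. A row was found for 11475 of the 22028 protein-coding genes in GENCODE M21. Counts of genes with a row are to be read beside that share.

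The stromal label was checked on marker genes. All 10 stromal markers had a row, up to Col1a1 with the highest mean log2 level of the table, 13.29. Before division by length the lowest were Nkx2-5 and Tlx1, transcription factors of the developing spleen, with mean log2 levels of 3.58 and 4.82. The receptor gene Pdgfra followed with 5.24. Per kilobase the order differed, with Pdgfra the lowest at 1.92, Nkx2-5 at 2.79 and Tlx1 at 3.72. On the mean log2 scale Pdgfrb was at 6.45, Thy1 at 7.72, Vcam1 at 8.03, Col3a1 at 9.87, Vim at 11.78 and Col1a2 at 12.47. The B cell markers Cd79a, Cd79b, Ms4a1 and Pax5 had no row, and of 5 markers of other leukocytes Cd68 alone had one, at 1.36. Among endothelial markers Pecam1 was listed at 0.47 and Kdr at 2.83. Of the epithelial markers, Krt8 and Krt18 were at 1.55 and 0.31 on the mean log2 scale, whereas the adhesion gene Cdh1 was at 8.03.

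Among the 8 genes, Smo and Cdon were the most abundant per kilobase. Smo, the transducer of the signal, had a mean log2 level of 7.91 and 5.42 per kilobase, at percentile 90.2 of all genes. Cdon reached 8.34 before and 5.39 after division by length, at percentile 89.9. These values differed by 0.03 on the log2 scale per kilobase. The lower of them stood 2.00 above the next gene of the set, Gas1. Under each other choice of length the next gene was Sufu. The gap was then 1.75 with the longest transcript, 1.21 with the median transcript and 2.05 without a length.

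**Figure D1:**
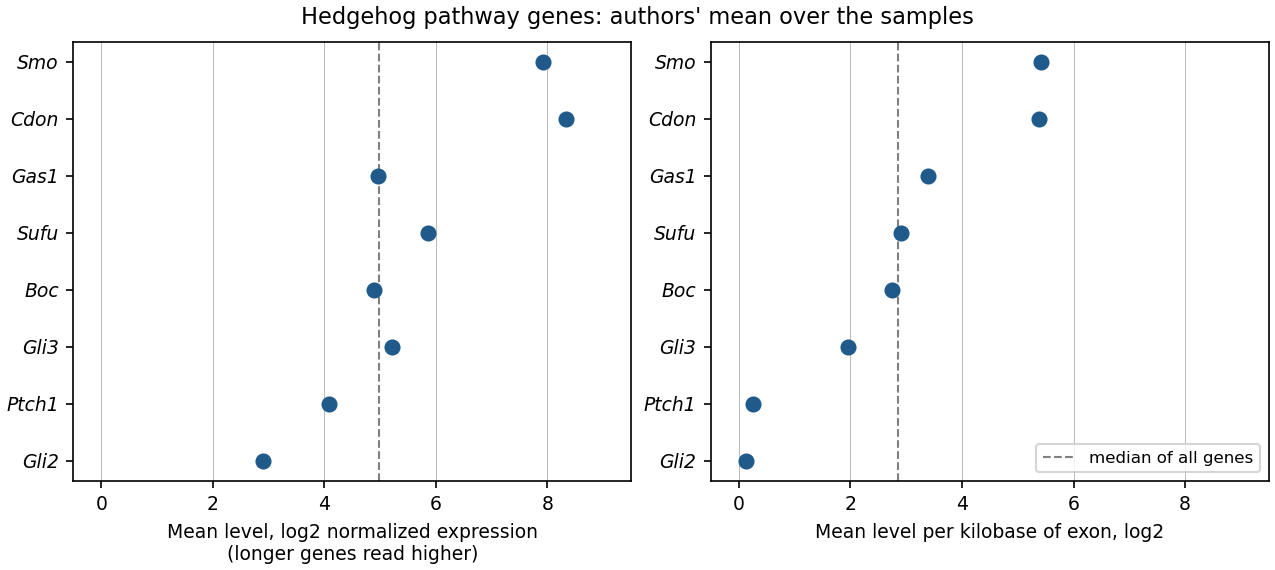
Each point is the authors' mean for 1 gene, on the left as log2 normalized expression and on the right as log2 level per kilobase of exon; dashed lines mark the median of all genes (4.99 and 2.85). Smo and Cdon lie 2.00 or more above the next gene per kilobase, and Ptch1 and Gli2 lie near 0.

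Gas1, the lipid-anchored co-receptor, had a mean log2 level of 4.95, at percentile 49.3 of all genes. It is a short gene on chromosome 13 of GRCm38 (60174405 to 60177365, minus strand), with 2961 exonic bases in GENCODE M21. Per kilobase its level was 3.39, at percentile 60.8. An antisense gene, Gm48488, shares 589 of these bases, or 19.9%, and has no row in the table. The libraries were stranded, but the strand setting of the counting is not given in the sources used here, so reads of this stretch cannot be assigned with certainty to Gas1.

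The 3 co-receptors differed from each other. Boc, which has a single annotated transcript of 4451 bases on chromosome 16 (44485049 to 44558897), had a mean log2 level of 4.90 and 2.74 per kilobase, at percentile 47.7. Cdon, on chromosome 9 (35421128 to 35507652), was higher than Boc by 2.64 on the log2 scale per kilobase, a ratio of 6.25 that became 33.6 with the median transcript as length and 10.8 without a length. Gas1 was higher than Boc by 0.64 per kilobase, a ratio of 1.56. Before division by length the difference between Gas1 and Boc was 0.06, so that most of it rests on the length correction.

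Ptch1, the receptor and itself a target of GLI factors, stood far below its partner Smo. Its mean log2 level was 4.08, and its 14185 exonic bases brought this down to 0.25 per kilobase, at percentile 12.9. Smo exceeded Ptch1 by 5.17 on the log2 scale per kilobase, a ratio of 35.9. Ptch1 lies on chromosome 13 (63508328 to 63573598) with 10 annotated transcripts, while Smo lies on chromosome 6 (29735503 to 29761365) with 2. With the median transcript of each gene as length the difference was 2.92, a ratio of 7.57.

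Of the GLI transcription factors, Gli3 and Gli2 had a value, and Gli3 was the higher. Gli3, which acts mainly as the repressor, had a mean log2 level of 5.21 and 1.95 per kilobase, at percentile 32.6. Gli2, the main activator, had 2.91 and 0.13, at percentile 12.0. Gli3 was higher than Gli2 by 1.82 on the log2 scale per kilobase, a ratio of 3.54. With the median transcript as length the ratio was 1.83. An antisense gene, Gm6556, shares 1.96% of the exonic bases of Gli3 and has no row. Gli1, which is both an activator and a target gene, had no row. The lowest mean log2 level in the table was -0.58, and the rule by which genes were kept is not given in the sources used here, so no level follows for Gli1.

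Sufu, the inhibitor that binds GLI proteins in the cytoplasm, had a mean log2 level of 5.86 and 2.91 per kilobase, at percentile 51.4. It lay 0.17 above Boc on the log2 scale per kilobase. Gas1 was higher than Sufu by 0.47 per kilobase of all exons, but the difference Gas1 minus Sufu turned to -0.29 with the longest transcript, -1.14 with the median transcript and -0.90 without a length, so the order of this pair is not settled. Sufu lies on chromosome 19 (46396896 to 46488804). Sufu was higher than Gli3 and Gli2 per kilobase. Of the 8 genes with a row, 4 lay above percentile 50 per kilobase of all exons, the same share as over all genes by definition. With the median transcript as length 3 did.

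The other genes of the pathway were read from lists grouped by role. Of the ligands, Shh, Ihh and Dhh had no row, nor did Scube1, Scube2 and Scube3, whose products help to release the ligand. Disp1, which exports the ligand from producing cells, was listed at 6.13 (mean log2 level) and 3.75 per kilobase, at percentile 68.1. Hhat, the enzyme that attaches palmitate to the ligand, was at 4.17 and 0.97 per kilobase, at percentile 19.4. The exons of Hhat together hold 9150 bases against 3247 in its longest transcript, and without a length it was at percentile 35.9. At the cell surface Hhip and Gpc3 had no row. The glypicans Gpc4 and Gpc6 were at 4.12 and 3.01 per kilobase, and the endocytic receptor Lrp2 was the lowest of that list at -1.75.

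In the list of GLI factors and their regulators, Kif7, Gpr161 and Stk36 were below the lower quartile of 1.42 per kilobase. The kinesin Kif7 was at 1.30 per kilobase, the receptor Gpr161 at 1.24 and Stk36 at 0.05, at percentiles 23.6, 22.6 and 11.4. Without a length these genes were at percentiles 26.8, 34.2 and 19.1. With Gli2, Gli3 and Sufu this list had a median percentile of 23.1, where all genes have 50 by definition. All 23 genes of ciliary transport had a row, with a median percentile of 47.5. They ranged from Ift20 at 4.75 per kilobase down to the motor subunit Dync2h1 at 0.59. All 15 kinase and ubiquitin ligase genes also had a row. Their median percentile was 82.9, with Prkar1a, a regulatory subunit of protein kinase A, the highest at 6.82 per kilobase. Btrc, a substrate receptor for GLI turnover, was the lowest at 0.91 per kilobase, at percentile 18.85. The exons of Btrc together hold 16908 bases against 4720 in its longest transcript, and without a length it was at percentile 50.2. The genes of this list are ones that many pathways share.

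**Figure D2:**
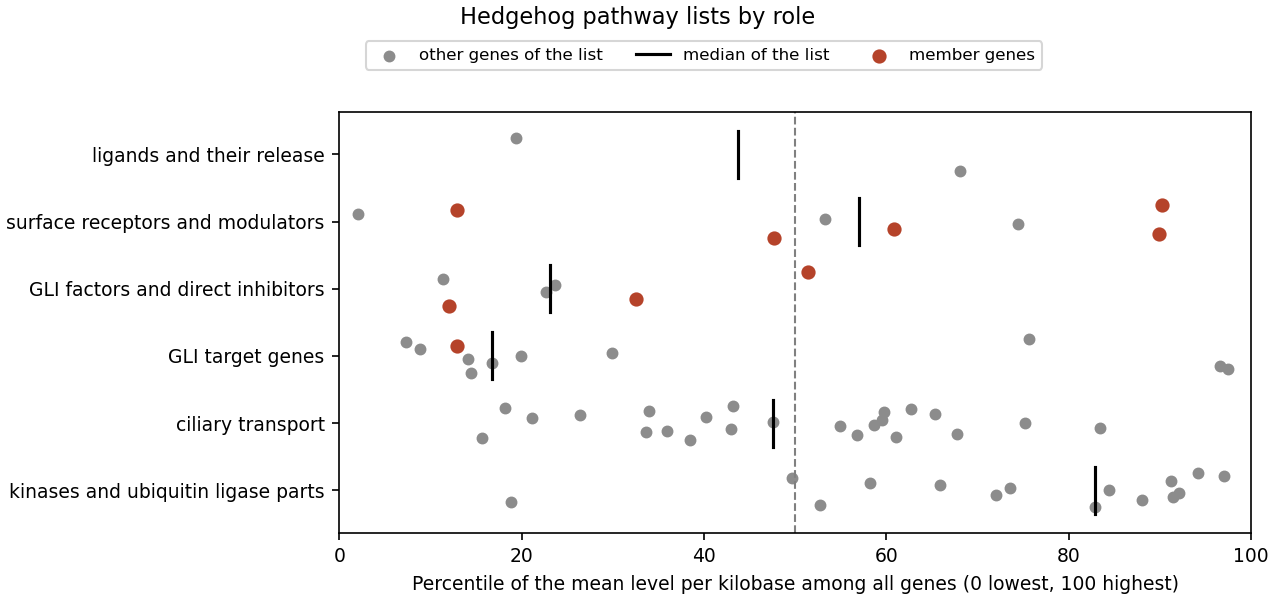
Each point is 1 gene with a row, placed by the percentile of its mean level per kilobase among all genes; rows are the lists by role, red points are the genes named at the outset, and black bars are list medians. The median is 82.9 for kinases and ubiquitin ligase parts, 47.5 for ciliary transport, 23.1 for GLI factors with their inhibitors and 16.7 for GLI target genes.

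Genes known to be induced by GLI factors were mostly low. Of 15 such genes 11 had a row, with a median percentile of 16.7. This median was 15.8 with the longest transcript as length, 32.9 with the median transcript and 34.6 without a length. Besides Gli1, no row was found for Hhip, Foxl1 and Foxd1. The cyclin genes Ccnd1 and Ccnd2 were at 7.02 and 6.66 per kilobase, and Snai1, a transcription factor of mesenchymal cells, was at 4.19. These 3 were the list's genes above percentile 50 per kilobase of all exons, although Snai1 was at percentile 48.0 without a length. The remaining genes lay on both sides of Ptch1, which was at 0.25 per kilobase. Above it were Igf2 at 1.77 per kilobase, Foxf2 at 1.02, Cdk6 at 0.70, Bcl2 at 0.44 and Foxf1 at 0.39. Below it were Mycn at -0.33 and Sfrp1 at -0.55.

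The position of a gene among all genes depended on which length was used. Boc ranged from percentile 25.1 with the median transcript as length to 48.3 without a length, and Gas1 from 41.2 to 60.8. Gli3 spanned 29.8 to 54.4. Smo and Cdon stayed above percentile 79, and Gli2 and Ptch1 below percentile 35, under each of the 4 choices of length.

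**Figure D3:**
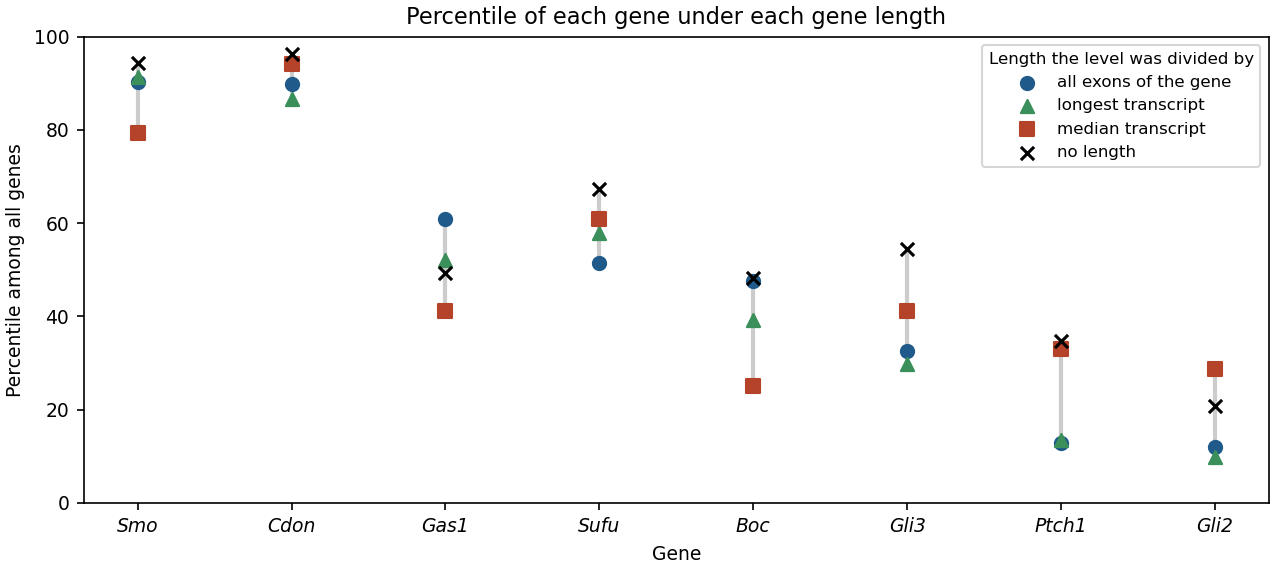
Percentile of each gene among all genes (y axis, 0 to 100) when its level is divided by all exons, the longest transcript, the median transcript or not divided; grey bars join the lowest and the highest. Smo and Cdon lie at the top under each choice, while Gas1 runs from 41.2 to 60.8 and Boc from 25.1 to 48.3.

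The promoters were described from RefSeq, which gave a window of 250 bases before and 50 bases from the start of transcription for 7 of the 9 genes on GRCm38.p6. In 6 of the 7 windows the GC content was above 52.7%, the median of 32851 windows, and in the same number the count of CG dinucleotides was above the median of 7. Ptch1 had the most, with 47 and a GC content of 76.3%, and Gli3 had 39. The exception was Cdon with 3 CG dinucleotides and 44.7%. The RefSeq windows of Cdon, Ptch1 and Gli3 lie inside the GENCODE genes rather than at their outer ends. Gas1 had 17 and 62.3%. The RefSeq window of Gas1, chr13:60177486-60177785, lies wholly outside the GENCODE gene, whose start on the minus strand is 60177365. The RefSeq start of Gas1 is therefore upstream of the GENCODE start. The 250 bases before the RefSeq start, chr13:60177536-60177785 on the minus strand, are shown because Gas1 leads this set. Each of 10 CG dinucleotides is in capitals. No measurement of these samples bears on this stretch.

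Gas1: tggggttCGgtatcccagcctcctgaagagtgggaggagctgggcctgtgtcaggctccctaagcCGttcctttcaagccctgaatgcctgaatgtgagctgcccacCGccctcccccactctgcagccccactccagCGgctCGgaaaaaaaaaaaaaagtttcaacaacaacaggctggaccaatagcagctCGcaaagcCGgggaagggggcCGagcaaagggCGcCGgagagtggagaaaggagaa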

How the data were processed

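RNA-seq of mSSC-YFP cells treated with BMS493 or DMSO was read from 1 table. According to the methods and the submitters' processing notes, the authors checked reads with FastQC, aligned them to mm10 with STAR 2.3.0e, counted uniquely mapped reads on Ensembl genes and normalized counts with trimmed M-value means (TMM). For each gene the authors deposited a mean of log2 normalized expression, whose sum on the linear scale was 989369. The other 4 columns of values hold the authors' own comparison (log2 fold change, t, p-value and adjusted p-value) and were not used. The table holds 0 columns of single samples, so the planned limma comparison of BMS493 with DMSO could not be made. Decimal commas were converted.

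Genes were looked up in GENCODE M21 (GRCm38, that is mm10), 11771 by symbol and 598 by an older symbol. The union of all exons served as length. GENCODE M21 is not the annotation that the methods name for counting, so lengths may differ from those of the counted genes. An overlapping gene without a row may be absent from that annotation. Percentiles count ties as midpoints and were tested on simulated data. Python 3.11.15, numpy 2.4.6, pandas 2.3.3 and matplotlib 3.10.9 were used. Alternatives were other lengths, no length, protein-coding genes only and a mean log2 level of at least 0.

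The genes and lists were chosen with earlier results of these data known. Named are all genes with a row from the set, the ligand, receptor and GLI target lists, the highest and lowest of the other lists, and the stromal and B cell markers, with other markers by those that have a row. Kif7, Gpr161 and Stk36 were named after their values were seen. Some genes were left out of the lists and are not reported here.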

Additional observations from a re-analysis of the deposited data

How the results depend on the processing

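A percentile was counted as moved when it differed by more than 5 points from the value per kilobase of all exons, a limit set in place of a spread, which the table does not give. With protein-coding genes only, or with a mean log2 level of at least 0, none of the 8 percentiles moved. With the longest transcript as length 3 of 8 moved, to 52.0 for Gas1, 57.9 for Sufu and 39.3 for Boc. With the median transcript 7 moved, to 79.4 for Smo, 41.2 for Gas1, 61.0 for Sufu, 25.1 for Boc, 41.2 for Gli3, 32.9 for Ptch1 and 28.8 for Gli2. Without a length 6 moved, to 96.4 for Cdon, 49.3 for Gas1, 67.4 for Sufu, 54.4 for Gli3, 34.6 for Ptch1 and 20.7 for Gli2. The rank among the 8 genes changed for 2 of them with the longest transcript, 8 with the median transcript and 6 without a length. The differences Cdon over Boc, Gas1 over Boc, Gli3 over Gli2 and Smo over Ptch1, added after seeing the data, kept their sign under each length. Gas1 minus Sufu, added in the same way, was 0.47 per kilobase of all exons and reversed to -0.29 with the longest transcript, -1.14 with the median transcript and -0.90 without a length. No paired analysis was possible because the columns used hold no values of single samples, and leaving out each replicate, other pseudocounts and filters within samples were not run for the same reason. The depth behind each mean is unknown.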
